A study of Mus musculus with 12 samples.

Results

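Cat, the gene for catalase, and 9 protein-coding genes around it on mouse chromosome 2 are described here: Elf5, Abtb2, Nat10, Caprin1, Lmo2, Cd59b, Cd59a, Tcp11l1 and Cd44. They were chosen by name with their measured difference in CPM between catalase knockout and wild-type libraries already known, and they are 10 of the 49315 genes in the deposited count table. The levels in knockout and wild-type libraries are therefore given as a description, without a test, and tests of the 10 genes are kept to the ethanol effects and to the spread within a genotype. All 10 passed the filter on low counts that left 18161 genes for testing. Elf5 passed it through the knockout libraries alone, since none of the 6 wild-type libraries reached the filter's level of 0.424 CPM, a count scaled to one common library total, and all 6 knockout libraries did. The farthest of the 10 genes, Tcp11l1, begins 1.20 Mb from Cat, measured between the lower coordinates of the 2 genes, as all distances here are.

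The libraries came from bulk RNA of the shaft of the femur, the thigh's cortical bone, in male mice that were 12 weeks old at gavage and were either Cat -/- (knockout) or Cat +/+ (wild type). Each genotype received PBS, or ethanol at 3, 3, 4 and 4.5 g per kg body weight from a 31.5% (v/v) solution, once a day on 4 days, and tissue was taken 6 hours after the last dose. Each library pooled RNA of 2 mice. There were 12 libraries, 3 for each genotype and gavage: numbers 1 to 3 are knockout with PBS, 4 to 6 knockout with ethanol, 7 to 9 wild type with PBS, and 10 to 12 wild type with ethanol. The spread between libraries is thus a spread between pools. The sources used here do not give how the knockout allele was built, which part of Cat it removes or the strain on which it was bred.

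Library totals ran from 19950222 to 28789308 counts. Replicate libraries differed by more than sampling noise in every pair, by a chi-square per gene of at least 7.64. The bone cell markers were present, with 13 of 13 osteoblast, 8 of 8 osteocyte and 10 of 10 osteoclast genes passing the filter, and blood cell RNA remained, with 12 erythroid genes at 1.06% to 2.19% of counts and 12 neutrophil genes at 2.29% to 3.99%. The 16 skeletal muscle genes made up 3.05%, 3.42% and 3.57% of all counts for libraries 8, 9 and 12, which are wild type, and 0.136% to 1.89% in the other 9 libraries. These 3 libraries stand apart, and the counts of genes that differ are given with and without them. Levels are in CPM, scaled by TMM factors.

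Catalase is the haem enzyme of peroxisomes that turns hydrogen peroxide into water and oxygen, and in the presence of hydrogen peroxide it can also oxidise ethanol to acetaldehyde. CD59, made in the mouse from a pair of adjacent genes, is a lipid-anchored surface protein that stops the complement membrane attack complex from forming on the body's own cells. The other genes have separate roles. ELF5 is an ETS transcription factor of epithelial and trophoblast cells, LMO2 bridges transcription factors in blood and endothelial progenitors, CD44 is a receptor for hyaluronan, NAT10 acetylates cytidines in ribosomal and other RNA, and CAPRIN1 binds RNA and takes part in stress granules. In a mouse that carries a targeted allele, genes beside that allele are inherited with it.

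The sequences just upstream of the 4 genes whose knockout and wild-type libraries did not overlap, as was so for 0.953% of all tested genes, are shown first, because these genes carry the difference between genotypes described below. They are RefSeq promoter windows (GRCm38.p6), reading up to 250 bases before a start 5′ to 3′ along the gene's strand, with annotated exon bases left out. Capitals mark the CCAAT box (CCAAT, or ATTGG on the other strand) and the GC box (GGGCGG, or CCGCCC on the other strand). The Cat window is chr2:103485161-103485403, minus strand. The Cd59a window is chr2:104095551-104095800, plus strand. The Elf5 window is chr2:103423818-103424061, plus strand, and precedes an internal start of that gene. The Tcp11l1 window is chr2:104712170-104712412, minus strand.
Cat: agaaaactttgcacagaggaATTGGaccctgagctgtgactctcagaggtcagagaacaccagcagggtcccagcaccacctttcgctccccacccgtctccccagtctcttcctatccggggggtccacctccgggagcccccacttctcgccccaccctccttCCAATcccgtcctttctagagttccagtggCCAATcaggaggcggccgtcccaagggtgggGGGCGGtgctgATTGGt
Cd59a: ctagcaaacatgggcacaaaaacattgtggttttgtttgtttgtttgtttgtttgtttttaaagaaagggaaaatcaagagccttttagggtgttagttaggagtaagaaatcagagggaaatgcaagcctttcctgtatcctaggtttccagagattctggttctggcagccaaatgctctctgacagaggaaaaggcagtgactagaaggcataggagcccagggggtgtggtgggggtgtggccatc
Elf5: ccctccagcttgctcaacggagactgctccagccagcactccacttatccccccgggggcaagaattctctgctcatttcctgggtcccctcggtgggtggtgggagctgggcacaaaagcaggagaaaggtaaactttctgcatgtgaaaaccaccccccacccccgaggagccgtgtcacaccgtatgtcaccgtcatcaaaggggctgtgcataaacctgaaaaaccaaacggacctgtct
Tcp11l1: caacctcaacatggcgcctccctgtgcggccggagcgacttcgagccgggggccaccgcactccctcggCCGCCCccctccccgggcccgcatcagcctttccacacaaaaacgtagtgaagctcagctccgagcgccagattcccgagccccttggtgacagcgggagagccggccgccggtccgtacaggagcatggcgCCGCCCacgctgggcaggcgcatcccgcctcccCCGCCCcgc

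The Cat window held 4 CCAAT boxes, 13, 55, 85 and 230 bases before the start, and 1 GC box at 24 bases. Of the 32851 mouse promoter windows in the same table, 33.8% held a CCAAT box on either strand, 32.7% a GC box and 12.4% a TATA box (TATAAA, or TTTATA on the other strand). The Tcp11l1 window had a GC content of 72.4% and 3 GC boxes. Cd59a, at 44.8% GC, and the internal start of Elf5, at 57.0%, held none of the 3 motifs, and none of the 4 windows held a TATA box. Of the 10 genes, 9 had a window in the table. These letters describe the windows and say nothing about which factors bind there.

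Cat transcript was present in the knockout at less than the wild-type level in every library. Cat (ENSMUSG00000027187, chr2:103453849-103485160, minus strand, GRCm38) stood at 128, 152 and 175 CPM in wild-type libraries 7 to 9 with PBS and at 172, 165 and 144 CPM in libraries 10 to 12 with ethanol. In the knockout it stood at 70.1, 65.9 and 66.5 CPM with PBS and at 69.0, 74.2 and 71.6 CPM with ethanol. The highest knockout library lay well under the lowest wild-type library, and the knockout libraries were close to one another. Averaged over gavage, the knockout differed from wild type by −1.17 on the log2 scale (SE 0.072), a fold of 0.446, with 1610 to 2001 raw counts per knockout library. The counts show no position within the gene, so they check the genotype labels by level only. In bulk tissue, fewer cells of a type and less RNA per cell cannot be told apart.

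**Figure D1:**
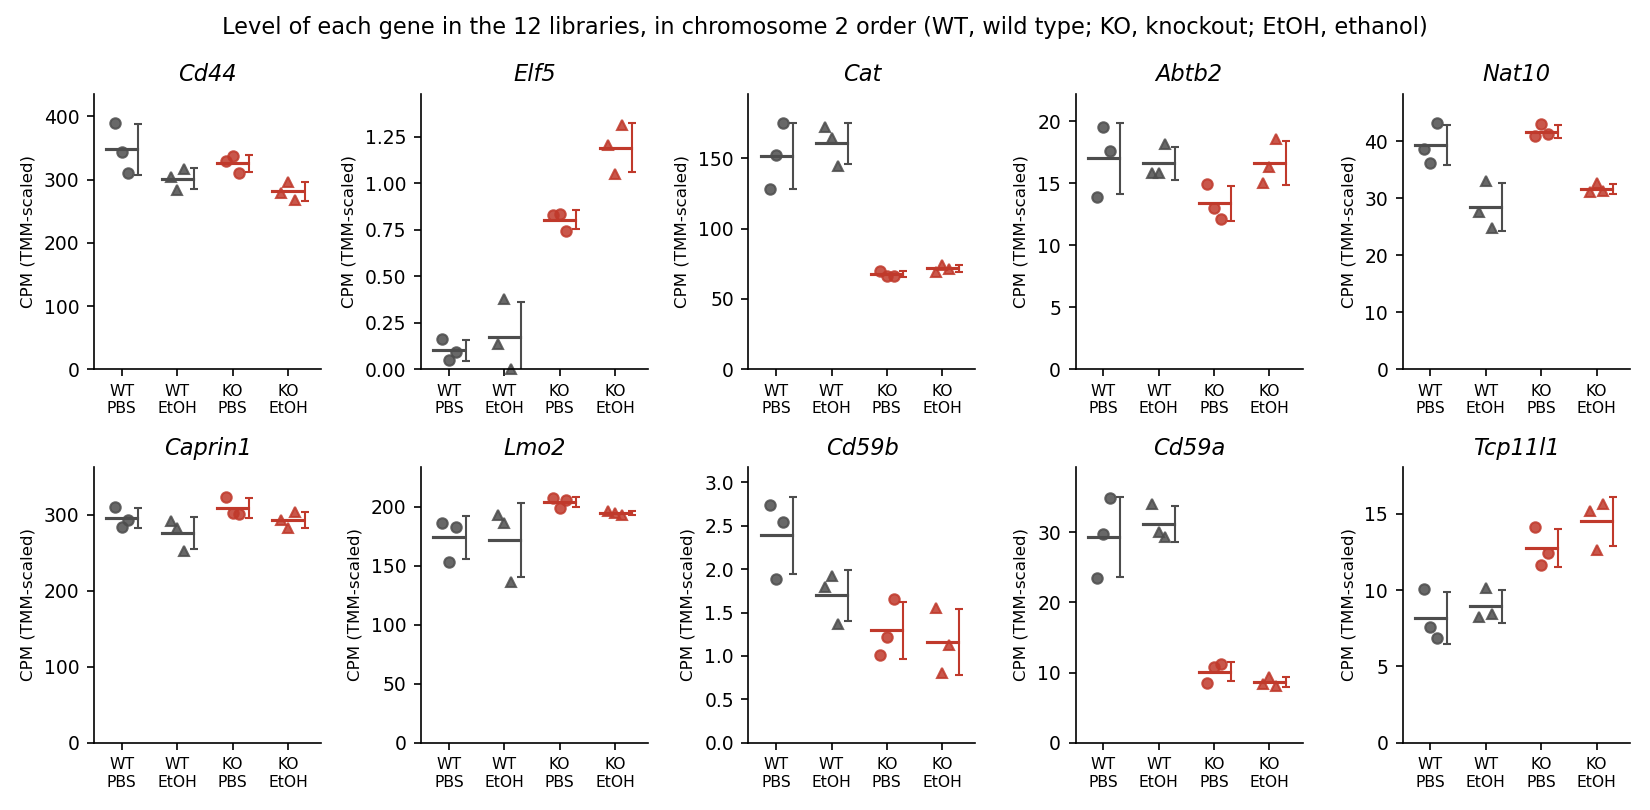
Level of each of the 10 genes in CPM (vertical axes, from 0) in the 4 groups (horizontal axes), with 1 point per library, a bar at the group mean and an error bar of 1 SD (n = 3). Knockout points (red) lie wholly under wild-type points (grey) for Cat and Cd59a and wholly over them for Elf5 and Tcp11l1, while Nat10 lies lower with ethanol (triangles) than with PBS (circles) in each genotype.

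Of the complement regulators, Cd59a separated the genotypes by a larger log2 difference than Cat itself. Cd59a (ENSMUSG00000032679, chr2:104095801-104115354, plus strand), whose start lies 642 kb beyond that of Cat, had 23.4, 29.7 and 34.9 CPM in wild type with PBS and 34.1, 30.1 and 29.3 CPM with ethanol. The knockout libraries held 8.57, 10.7 and 11.2 CPM with PBS and 8.35, 9.41 and 8.14 CPM with ethanol. No knockout library reached the wild-type range, and the averaged log2 difference was −1.69 (SE 0.10), a fold of 0.310. Cd59b (ENSMUSG00000068686, chr2:104069849-104091187, plus strand), which lies between Lmo2 and Cd59a, was scarce. It had 2.74, 1.89 and 2.55 CPM in wild type with PBS and 1.80, 1.93 and 1.37 CPM with ethanol, against 1.01, 1.22 and 1.65 CPM in the knockout with PBS and 1.55, 0.798 and 1.13 CPM with ethanol. Here 4 of the 6 knockout libraries lay under every wild-type library and 2 lay inside their range, with an averaged log2 difference of −0.72 (SE 0.19).

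Reads of this pair could in part be exchanged between the copies, since the sources used here do not say how reads that map to several places were treated. The first 250 bases of each coding sequence are printed to show how far the copies differ, from the GENCODE M21 transcripts, with capitals at the bases that differ from the other copy or have no counterpart in it.
Cd59a: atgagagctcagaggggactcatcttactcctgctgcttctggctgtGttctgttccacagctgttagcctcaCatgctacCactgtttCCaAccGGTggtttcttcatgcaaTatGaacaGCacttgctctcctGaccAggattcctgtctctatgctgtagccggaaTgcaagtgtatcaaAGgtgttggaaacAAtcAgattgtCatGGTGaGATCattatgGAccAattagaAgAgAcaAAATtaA
Cd59b: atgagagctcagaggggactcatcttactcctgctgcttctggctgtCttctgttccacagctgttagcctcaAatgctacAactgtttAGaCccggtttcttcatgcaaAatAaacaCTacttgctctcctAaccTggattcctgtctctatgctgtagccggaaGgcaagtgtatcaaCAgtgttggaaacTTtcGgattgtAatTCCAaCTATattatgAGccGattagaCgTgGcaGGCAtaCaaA

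The coding sequences of Cd59a and Cd59b, 372 and 390 bases long, were identical at 75.1% of 405 aligned positions, with 53 mismatches and 48 bases against a gap. The longest stretch that both coding sequences share without a mismatch was 47 bases, at their 5′ ends. Over the annotated transcripts, 5.32% of the 50-base windows of Cd59b occurred letter for letter in Cd59a, and 3.87% of the windows of Cd59a in Cd59b. The sources used here do not give the read length, and the counts of both genes are uncertain to the extent that reads fell in such windows.

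Other genes of the complement system were not called alongside Cd59a. Of 15 tested regulators and components, 0 were called for the averaged genotype difference by edgeR, where only 0.0110% of all tested genes were. Of the 15, 6 had an unadjusted p under 0.05, a higher share than the 14.3% of all tested genes. Their median averaged log2 difference was 0.037, against −0.0033 over all tested genes. After ethanol, 1 of the 15 was called in wild type, where 1.26% of all tested genes were. It was Cd93, a surface receptor once assigned to the complement protein C1q, which rose from 124 ± 6.79 to 158 ± 6.01 CPM (SD, n = 3; log2 difference 0.35, SE 0.065, adjusted p = 0.0329, edgeR). In the knockout the Cd93 difference was 0.28 (SE 0.065, adjusted p = 0.0524, edgeR). There 0 of the 15 were called (1.87% of all tested genes), and 1 had an unadjusted p under 0.05 (16.4% of all tested genes).

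Elf5, whose 3′ end faces that of Cat across 2.86 kb, was close to absent from wild-type libraries and was counted in every knockout library. Elf5 (ENSMUSG00000027186, chr2:103411688-103450989, plus strand) had 4, 1 and 2 raw counts in wild type with PBS and 3, 8 and 0 with ethanol. The knockout libraries had 23, 24 and 18 raw counts with PBS and 35, 25 and 36 with ethanol. Scaled, that was 0.161, 0.0497, 0.0926, 0.138, 0.376 and 0 CPM in the 6 wild-type libraries, 0.832, 0.833 and 0.744 CPM in the knockout with PBS, and 1.21, 1.05 and 1.31 CPM in the knockout with ethanol. The genotypes did not overlap, yet even the highest knockout library held only 36 counts of Elf5. The averaged log2 difference was 2.80 (SE 0.40), a size that depends on how the fit treats counts this low. With ethanol alone it was 2.72 (SE 0.53), and 3.93 without library 11, which held the most Elf5 counts of the wild-type libraries. The 10 epithelial markers, the usual company of Elf5, summed to 0.00337% to 0.00542% of counts in wild type and 0.00321% to 0.00448% in the knockout. Their sums lay between 32.1 and 54.2 CPM, so a shift of the size of Elf5, at most 1.31 CPM, could hardly be seen in them. Their part in the Elf5 values was not tested. Of the 10, 6 were tested, of which 1 had a higher and 5 a lower estimate in the knockout, and none was at 0 in all libraries. The 1 with a higher estimate (log2 difference 0.25, SE 0.19) itself lies 190 kb from Cat.

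Tcp11l1, a little-studied gene, was higher in the knockout. Tcp11l1 (ENSMUSG00000027175, chr2:104657288-104712169, minus strand) had 10.1, 7.61 and 6.85 CPM in wild type with PBS and 8.21, 10.1 and 8.43 CPM with ethanol, against 14.1, 11.7 and 12.4 CPM in the knockout with PBS and 15.2, 12.6 and 15.7 CPM with ethanol. Every knockout library lay above every wild-type library, by a small margin at the nearest pair, and the averaged log2 difference was 0.67 (SE 0.11). With PBS alone it was 0.64 (SE 0.15), and 0.34 without libraries 8, 9 and 12, which leaves library 7 as the only wild-type library with PBS. Its end overlaps that of Cstf3 on the plus strand, and the sources used here do not say whether counting used strand, so reads of the shared stretch cannot be told apart. Cstf3 itself overlapped between genotypes, with means under PBS of 38.2 CPM (wild type) and 40.8 CPM (knockout).

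Among the genes with blood and stroma roles, Lmo2 came nearest to separating the genotypes. Lmo2 (ENSMUSG00000032698, chr2:103957986-103981878, plus strand) had 186, 153 and 183 CPM in wild type with PBS and 193, 186 and 136 CPM with ethanol, against 207, 199 and 205 CPM in the knockout with PBS and 196, 194 and 193 CPM with ethanol. Of the 6 knockout libraries, 5 lay above the wild-type range and 1 just inside it, with an averaged log2 difference of 0.20 (SE 0.081), or 0.079 without libraries 8, 9 and 12. Whether Lmo2 separated the genotypes depended on the setting. It did so with RLE factors, without the low-count filter and in the deposited normalized table, where 1.05%, 0.647% and 1.07% of all tested genes did. Leaving out some of the single libraries had the same outcome. The wild-type libraries lowest in Lmo2, 8 and 12, were also those lowest in the 12 erythroid genes, at 1.13% and 1.06% of counts. The other wild-type libraries had 1.57% to 2.12%, and knockout libraries 1.89% to 2.19%. All 12 erythroid genes had higher estimates in the knockout, 4 of them without overlap, where 0.953% of all tested genes were without overlap. Other marker lists were one-sided too, with all 10 B cell genes higher and all 16 muscle, 12 neutrophil and 8 osteocyte genes lower. The remaining lists were mixed. None of the erythroid genes was at 0 in all libraries, and their part in the Lmo2 values was not tested. Lmo2 overlaps the minus-strand gene 4931422A03Rik, with the same limit on strand.

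The genotypes overlapped for the 4 other genes. Cd44 (ENSMUSG00000005087, chr2:102811141-102901665, minus strand) ran from 284 to 389 CPM in wild type and from 268 to 337 CPM in the knockout, with an averaged log2 difference of −0.097 (SE 0.059). Caprin1 (ENSMUSG00000027184, chr2:103762941-103797649, minus strand) ran from 252 to 310 and from 283 to 324 CPM, a log2 difference of 0.075 (SE 0.048). Nat10 (ENSMUSG00000027185, chr2:103721256-103761270, minus strand) ran from 24.8 to 43.2 and from 31.1 to 43.0 CPM, a log2 difference of 0.12 (SE 0.069). These 3 genes thus lie among the neighbours of Cat without sharing its difference in level. Abtb2 (ENSMUSG00000032724, chr2:103566310-103718423, plus strand), a gene for an ankyrin repeat and BTB domain protein and the nearest neighbour on the other side of Cat, had 13.9, 19.5 and 17.6 CPM in wild type with PBS and 15.8, 15.9 and 18.2 CPM with ethanol. In the knockout it had 15.0, 13.02 and 12.2 CPM with PBS and 15.0, 16.3 and 18.5 CPM with ethanol, a log2 difference between genotypes of −0.35 (SE 0.13) with PBS and 0.00060 (SE 0.13) with ethanol. The difference with PBS was −0.056 without libraries 8, 9 and 12.

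Set side by side per kilobase of annotated exon, Cat stood lower in the order of levels in the knockout than in wild type. In wild type with PBS the order was Lmo2 at 80.3 ± 8.40 CPM per kb (SD, n = 3), Cat at 58.0 ± 8.96, Cd44 at 51.3 ± 5.87, Caprin1 at 28.9 ± 1.32, Cd59a at 16.2 ± 3.17, Nat10 at 5.46 ± 0.49 and Abtb2 at 2.82 ± 0.47, followed by Cd59b at 1.84 ± 0.34, Tcp11l1 at 1.19 ± 0.24 and Elf5 at 0.017 ± 0.0096. The neighbours in this order that overlapped between libraries were Cat with Cd44 and Cd59b with Tcp11l1. In the knockout with PBS, Cat, at 25.8 ± 0.85 CPM per kb, stood in the fourth place, under every library of Caprin1 (30.2 ± 1.28). Cd59a, at 5.61 ± 0.77, overlapped with Nat10 (5.79 ± 0.16), and Tcp11l1, at 1.85 ± 0.18, stood above Cd59b (0.995 ± 0.25). In the knockout with ethanol, Cat (27.4 ± 0.99) again had a lower mean than Caprin1 but overlapped with it (Caprin1 at 28.6 ± 0.99). There Cd59a, at 4.77 ± 0.38, had a higher mean than Nat10 and overlapped with it, so that the order of this pair by mean was that of wild type.

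Of the 10 genes, 4 (Cat, Cd59a, Elf5 and Tcp11l1) thus separated all 6 knockout from all 6 wild-type libraries, where 0.953% of the 18161 tested genes did. Of these, 2 were higher in the knockout (0.782% of all tested genes) and 2 lower (0.171%). That count rests on the contrast by which the genes were taken, and it is given only as a description. In the fit across all genes, edgeR called no gene outside the list between genotypes, with PBS, with ethanol or averaged. The 0.0110% of tested genes past the threshold in each are listed genes, Cat and Cd59a, and nothing is read from that, since this contrast chose them. Leaving out muscle-rich libraries 8, 9 and 12, Cd59b separated the genotypes too, which made 5 of 10, where 2.65% of all tested genes did with those 9 libraries.

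The 28 tested genes within 2 Mb of Cat that are not listed were set beside genes farther away, so that the genes taken by this contrast do not enter. Of these 28, 2 (7.14%) separated the genotypes, against 1 of 35 (2.86%) at 2 to 10 Mb, 1 of 376 (0.266%) at 10 to 30 Mb, 6 of 913 (0.657%) on the rest of chromosome 2 and 159 of 16748 (0.949%) on all other chromosomes. The shares near Cat rest on very few genes and were not tested. One of the 2 is the long non-coding RNA Gm13881 (chr2:103912024-103918960, plus strand), at 1.24 to 1.71 CPM in wild type and 1.85 to 3.33 CPM in the knockout (log2 difference 0.71, SE 0.15, adjusted p = 0.328, edgeR). The other is Depdc7 (chr2:104721784-104742878, minus strand), which lies next to Tcp11l1, at 1.67 to 3.28 CPM in wild type and 3.98 to 5.35 CPM in the knockout (log2 difference 0.92, SE 0.15, adjusted p = 0.229, edgeR). Neither was called. Without libraries 8, 9 and 12, 4 of the 28 unlisted genes (14.3%) separated the genotypes, against 2.61% of the genes farther than 2 Mb.

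**Figure D2:**
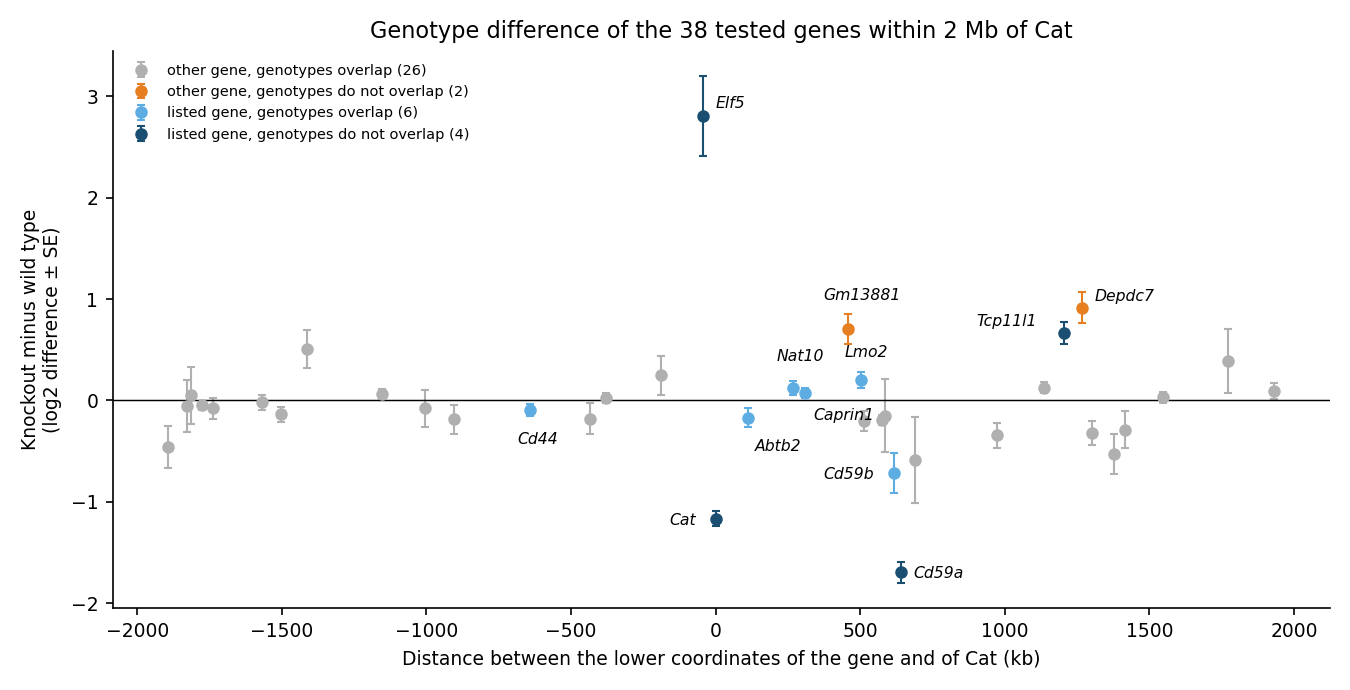
Averaged knockout minus wild-type log2 difference with its SE (vertical axis) for the 38 tested genes within 2 Mb of Cat, by the distance in kb between the lower coordinates of the gene and of Cat (horizontal axis). The 6 genes whose genotypes do not overlap are Cat, Cd59a, Elf5, Tcp11l1, Gm13881 and Depdc7, and both directions occur, from −1.69 for Cd59a to 2.80 for Elf5.

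Within this stretch, 4 of the 6 genes were higher in the knockout (0.782% of all tested genes) and 2 lower (0.171%). Both lower genes, Cat and Cd59a, are listed genes that this contrast chose, so these directions are a description only. The 2 unlisted genes, Gm13881 and Depdc7, were both higher. The genes that separated the genotypes were interleaved with genes that did not, since Abtb2, Nat10, Caprin1 and Lmo2 all lie between Cat and Cd59a. The median size of the averaged log2 difference was 0.183 over the 28 genes that were not listed and 0.101 over all tested genes. The knockout allele and the chromosome 2 DNA linked to it are carried by the same 6 libraries, so effects of the enzyme's loss and of the linked DNA on these genes cannot be told apart.

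**Figure D3:**
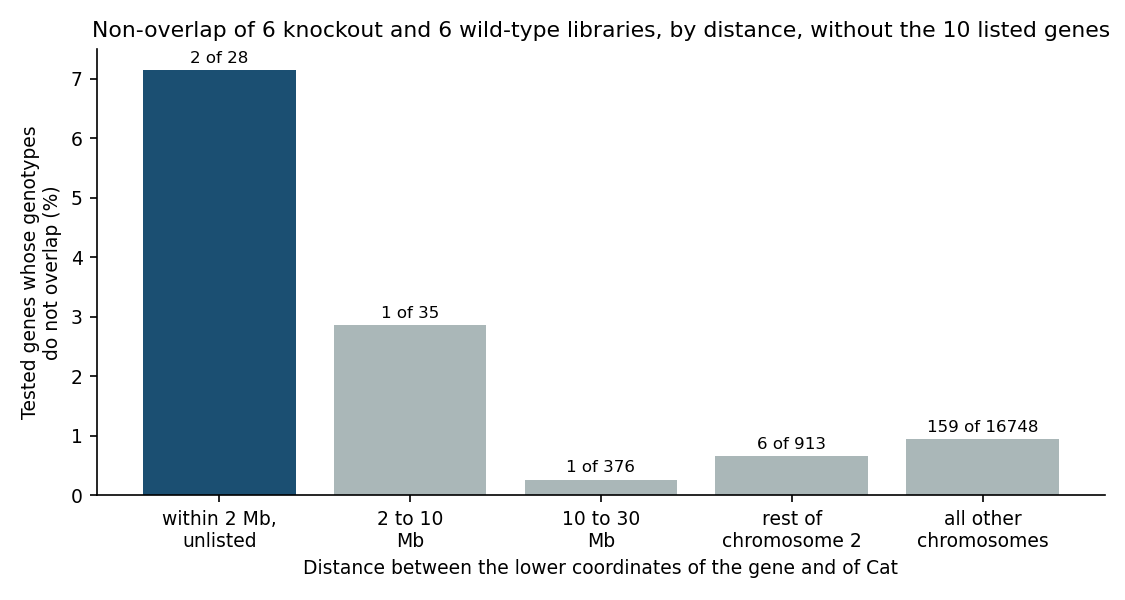
Share of tested genes, in percent, whose 6 knockout and 6 wild-type libraries do not overlap in CPM (bars, from 0), by distance class from Cat, with the number of genes above each bar. The 10 listed genes are left out; the 28 other genes within 2 Mb stand at 7.14%, from 2 genes, and the other 4 classes at 0.266% to 2.86%.

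Ethanol, the contrast by which the genes were not taken, gave no call for Cat or Cd59a. The ethanol difference of Cat was 0.083 on the log2 scale in wild type (SE 0.10, adjusted p = 0.748, edgeR) and 0.085 in the knockout (SE 0.10, adjusted p = 0.771, edgeR). For Cd59a it was 0.088 in wild type (SE 0.14, adjusted p = 0.813) and −0.23 in the knockout (SE 0.15, adjusted p = 0.483). Ethanol and PBS libraries overlapped in each genotype for both genes.

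Nat10 was the only one of the 10 genes that edgeR called for ethanol, and it fell. In wild type it went from 38.6, 36.1 and 43.2 CPM with PBS to 27.6, 33.0 and 24.8 CPM with ethanol, a log2 difference of −0.47 (SE 0.099, adjusted p = 0.0468, edgeR with Benjamini-Hochberg adjustment). In the knockout it stood at 40.8, 43.0 and 41.2 CPM with PBS and at 31.1, 32.7 and 31.3 CPM with ethanol, a log2 difference of −0.40 (SE 0.098, adjusted p = 0.0628). Every ethanol library lay under every PBS library of its genotype, as it did for 5.46% of all tested genes. The share of all tested genes called was 1.26% in wild type (0.705% were lower with ethanol) and 1.87% in the knockout. The wild-type call was lost in 15 of 20 other settings, with adjusted p from 0.0021 to 0.330 over all 20, and the knockout difference passed in 8 of 20, with adjusted p from 0.0032 to 0.213. The log2 difference was negative in all of them, from −0.59 to −0.34 in wild type and from −0.42 to −0.37 in the knockout.

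The genes that work beside Nat10 in the nucleolus pointed the same way. Of 10 such genes, all had negative ethanol estimates in wild type (median −0.26, against −0.018 over all tested genes) and in the knockout (median −0.19, against 0.00014). In wild type 3 of the 10 fell: Utp20, a processing factor of the small ribosomal subunit, by 0.58 (SE 0.10, adjusted p = 0.0298), the pseudouridine synthase Dkc1 by 0.46 (SE 0.090, adjusted p = 0.0379) and the RNA methyltransferase Fbl by 0.34 (SE 0.069, adjusted p = 0.0422) on the log2 scale by edgeR. In the knockout 1 of the 10 was called, where 1.87% of all tested genes were. It was Dkc1, which fell by 0.40 (SE 0.089, adjusted p = 0.0460, edgeR). The 13 osteoblast markers summed to 3.70% to 4.36% of counts with PBS and 1.29% to 2.71% with ethanol in the knockout, without overlap, and to 2.40% to 3.02% and 1.25% to 2.65% in wild type, with overlap. The 10 osteoclast markers summed to 0.226% to 0.269% with PBS and 0.294% to 0.409% with ethanol in wild type, without overlap, and to 0.243% to 0.276% and 0.261% to 0.311% in the knockout, with overlap. The sums were not tested. None of these markers was at 0 in all libraries, and their part in the Nat10 values was not tested.

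**Figure D4:**
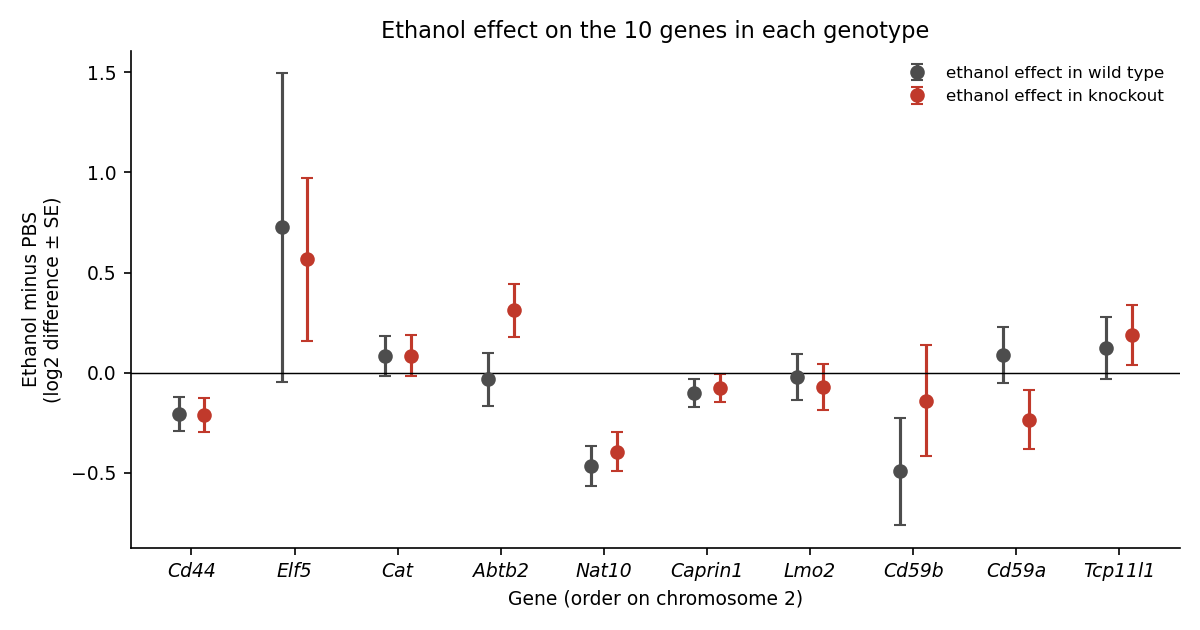
Ethanol minus PBS log2 difference with its SE (vertical axis) for the 10 genes in chromosome order (horizontal axis), in wild type (grey) and knockout (red). Nat10 lies at −0.47 and −0.40, Cd44 at −0.21 in both genotypes, and the wide error bars of Elf5 go with its low counts.

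Cd44 had the same estimate in both genotypes, −0.21 (SE 0.083; adjusted p = 0.247 in wild type and 0.226 in the knockout, edgeR). In the knockout its ethanol libraries, at 279, 297 and 268 CPM, all lay under its PBS libraries, at 329, 337 and 310 CPM. In wild type, 303, 284 and 317 CPM with ethanol overlapped with 389, 344 and 310 CPM with PBS. Abtb2 and Elf5 lay higher with ethanol than with PBS in every knockout library, and Lmo2 lower, so that 5 of the 10 genes separated ethanol from PBS in the knockout, where 32.3% of all tested genes did. In wild type 1 of the 10, Nat10, did so, against 16.4% of all tested genes. None of these 4 genes was called in the knockout, where Abtb2 was at 0.31 (SE 0.13, adjusted p = 0.266), Elf5 at 0.57 (SE 0.41, adjusted p = 0.557) and Lmo2 at −0.069 (SE 0.12, adjusted p = 0.857).

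The remaining genes had ethanol adjusted p of 0.402 or more by edgeR. In wild type Cd59b was at −0.49 (SE 0.27), Elf5 at 0.73 (SE 0.77), Tcp11l1 at 0.12 (SE 0.15) and Caprin1 at −0.10 (SE 0.068). In the knockout Cd59b was at −0.14 (SE 0.28), Tcp11l1 at 0.19 (SE 0.15) and Caprin1 at −0.076 (SE 0.068). In all, 1 of the 10 genes was called in wild type and 0 in the knockout, while 2 and 3 of them had an unadjusted p under 0.05, against 16.0% and 16.4% of all tested genes.

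Whether ethanol acted differently on the 10 genes in the 2 genotypes was tested by the interaction. Of all tested genes, 0 (0.00%) were called by edgeR, 359 had an unadjusted p under 0.05, and DESeq2 and limma-voom called 1 and 0. All 10 genes had an adjusted p of 0.99998, and 0 of the 10 had an unadjusted p under 0.05. The difference of the ethanol effects, knockout minus wild type, was 0.0019 on the log2 scale for Cat (95% interval −0.33 to 0.33), 0.071 for Nat10 (−0.25 to 0.39), −0.32 for Cd59a (−0.79 to 0.15) and 0.35 for Abtb2 (−0.087 to 0.78). The intervals of Cd59a and Abtb2 allow differences in log2 of more than 0.7, so that equal effects are not shown.

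No gene of the lists around peroxide, peroxisomes and ethanol was called between genotypes by edgeR, where only 0.0110% of all tested genes were. That was 0 of 21 genes for peroxide and superoxide, 0 of 15 for peroxisomal oxidases and import and 0 of 10 for ethanol oxidation. Averaged estimates were below 0 for 12, 12 and 8 of them. At an unadjusted p under 0.05 there were 6, 0 and 4, where 14.3% of all tested genes had one. The share was higher than that in the lists of peroxide and of ethanol oxidation. Their median averaged log2 differences were −0.014, −0.059 and −0.12, against −0.0033 over all tested genes. After ethanol, 1 of the 21 and 1 of the 15 were called in the knockout, where 1.87% of all tested genes were. Prdx1, a peroxiredoxin that reduces hydrogen peroxide, fell in the knockout from 190 ± 4.49 to 160 ± 0.65 CPM (SD, n = 3; log2 difference −0.25, SE 0.055, adjusted p = 0.0430, edgeR). Xdh, which makes uric acid and can release hydrogen peroxide, rose there from 193 ± 2.80 to 288 ± 33.5 CPM (log2 difference 0.58, SE 0.11, adjusted p = 0.0270, edgeR). In wild type both had estimates in the same direction, and neither was called. Prdx1 was at −0.20 there (SE 0.055, adjusted p = 0.103, edgeR) and Xdh at 0.48 (SE 0.11, adjusted p = 0.0644, edgeR). Of the 10 genes of ethanol oxidation, 0 were called after ethanol in either genotype (1.26% and 1.87% of all tested genes). In each genotype 1 had an unadjusted p under 0.05 (16.0% and 16.4% of all tested genes). The one with the smallest p was the alcohol dehydrogenase Adh7, at 0.59 ± 0.18 and 1.03 ± 0.38 CPM in wild type (log2 difference 0.79, SE 0.34, adjusted p = 0.274) and 0.94 in the knockout (SE 0.32, adjusted p = 0.157).

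After ethanol, edgeR called 0 of 13 CD44 ligands and partners, 0 of 12 genes of the LMO2 complex and 0 of 11 CAPRIN1 partners in stress granules. Of all tested genes, 1.26% were called in wild type and 1.87% in the knockout, so 0 calls in lists this short says little. An unadjusted p under 0.05 was found for 0 to 2 genes per list and genotype, against 16.0% and 16.4% of all tested genes. The smallest p in each went to Msn in wild type (log2 difference −0.13, SE 0.069) and Has2 in the knockout (−1.15, SE 0.36), to Gata2 (0.22, SE 0.093, and 0.21, SE 0.092) and to G3bp1 in wild type (−0.17, SE 0.062) and Tia1 in the knockout (−0.097, SE 0.053). Moesin links CD44 to the cell cortex, HAS2 makes hyaluronan, GATA2 binds in the LMO2 complex, and G3BP1 is the stress granule protein to which CAPRIN1 binds.

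Within a genotype, Cd59a and Cat varied together in wild type. Wild-type library 7 was lowest in both and libraries 9 and 10 were highest in both, over 128 to 175 CPM of Cat and 23.4 to 34.9 CPM of Cd59a. Over the 6 wild-type libraries, 3 with PBS and 3 with ethanol, log2 CPM of Cat and Cd59a had Pearson r = 0.956 (exact permutation p = 0.0014, two-sided) and Spearman rho = 1 (exact permutation p = 0.0028). This was 1 of 18 relations examined, of the 9 neighbours with Cat in each genotype, and its p adjusted over them was 0.025. These relations were added after the levels had been seen. Without libraries 7 and 9, the farthest from the median of Cat, r was 0.830. That value is not particular to Cd59a, since with the same libraries left out Lmo2 had 0.987 and Caprin1 0.841. The other neighbours then ran from −0.823 (Abtb2) to 0.789 (Elf5). For Cat and Cd59a in the 6 knockout libraries r was −0.621 (exact permutation p = 0.197, adjusted 0.548) and rho −0.54 (exact permutation p = 0.297), over a narrow range of Cat. The difference between the genotypes was not tested. The other 16 relations had an adjusted exact permutation p of 0.283 or more.

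**Figure D5:**
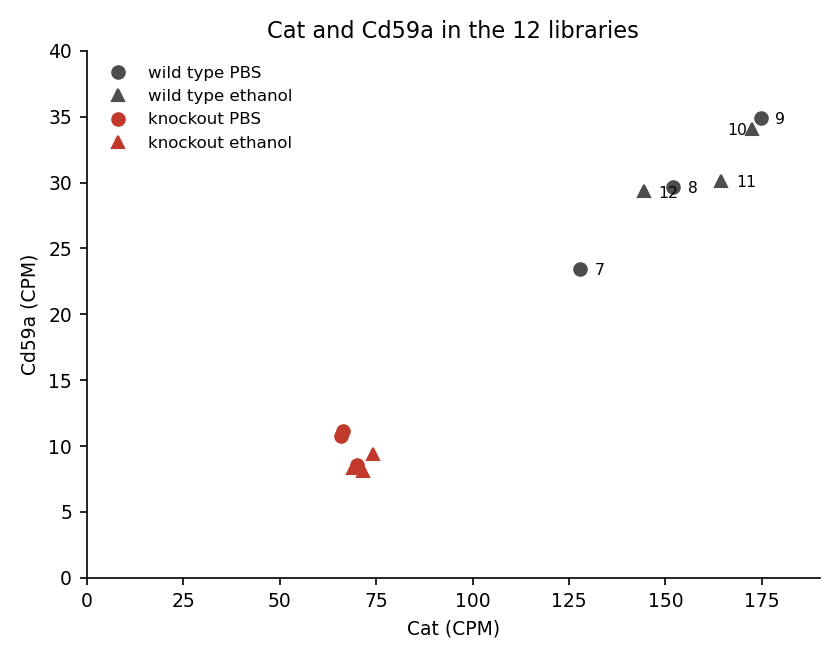
Cat (horizontal axis) against Cd59a (vertical axis), both in CPM from 0, with 1 point per library and library numbers beside the wild-type points. Wild-type points (grey) run from library 7 at the lower left to library 9 at the upper right, and the 6 knockout points (red) lie together at 65.9 to 74.2 CPM of Cat.

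For comparison, 4 of the other 18159 tested genes (0.0220%) had a wild-type r with Cat at least as high as that of Cd59a. Muscle genes took 0.330%, 3.42% and 0.136% of counts in libraries 7, 9 and 10, and their part in this relation was not tested. Ranked by the smaller of the r with Cat within wild type and within the knockout (6 libraries each, 13759 named genes of at least 1 CPM), the genes most like Cat were Ccnb2-ps (0.933), Hdhd5 (0.901), Rnf10 (0.884), Zfp229 (0.859) and Ighv1-55 (0.848). None of these 5 lies on chromosome 2, and the highest of the listed neighbours on this measure was Abtb2 at 0.322.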

How the data were processed

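Bulk RNA-seq of 12 femoral shaft libraries was used, grouped by genotype and gavage from the labels. The authors deposited whole-number counts per Ensembl gene, not normalized, and a second table with a normalized signal, which is the deposited count divided by 1 factor per library (largest relative spread 9.88e-10) and was used in 1 alternative only. Trimmomatic 0.36, STAR 2.5.2b, featureCounts, Subread 1.5.2 and GRCm38 are named in the submitters' processing notes. The sources used here do not give their settings, including strand and multiple mapping.

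The 10 genes, the gene lists and the comparisons were chosen with earlier results of these data known. Names and positions came from the deposited table and GENCODE M21 (48970 of 49315 identifiers matched). The low-count filter was filterByExpr with a minimum count of 10 and a minimum total of 15, and TMM gave scaling factors of 0.908 to 1.05. edgeR 4.0.16 quasi-likelihood tests (robust, R 4.3.3) used 1 coefficient per group over all 12 libraries, with 8 residual degrees of freedom. Calls needed an adjusted p under 0.05 after Benjamini-Hochberg adjustment over 18161 genes, and every adjusted p comes from this fit unless another source is named. The SE is the size of the log2 difference divided by the square root of F, and 95% intervals use the t quantile at 8 degrees of freedom. Genotypes separate where the 6 knockout and 6 wild-type libraries do not overlap in CPM.

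The genes named are the 10 listed genes, every other tested gene within 2 Mb of Cat that separated the genotypes or was called, up to 3 called genes per pathway list in an ethanol comparison (or the 1 with the smallest p) and the 5 genes most like Cat. The lists held enzymes of peroxide, of peroxisomes and of ethanol, complement genes, partners of CD44, LMO2 and CAPRIN1, nucleolar genes, and markers of muscle, erythroid cells, neutrophils, B cells, endothelium, monocytes and macrophages, epithelium, osteoblasts, osteocytes and osteoclasts. Alternatives to these choices were DESeq2 1.42.0, RLE or upper-quartile factors, dropping the low-count filter, limma-voom 3.58.1, the muscle genes as a covariate, a fit of only the 2 groups compared, leaving out each library or libraries 8, 9 and 12, the deposited normalized table and other distances. The fits were tested on simulated data.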

Additional observations from a re-analysis of the deposited data

How the results depend on the processing

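No paired analysis was possible because the 4 groups share no replicate number: the labels number the libraries 1 to 12. The count of listed genes called for ethanol in wild type was 1 (Nat10) and fell to 0 with upper-quartile factors, with limma-voom, without libraries 8, 9 and 12 and in a fit of the 2 groups compared, and ran from 0 to 1 when each library was left out. The Nat10 call was lost in 15 of 20 settings, and most of these were fits that left out a single library. In the knockout it was 0 and became 1 without a low-count filter, with DESeq2, with limma-voom and with the muscle genes as a covariate, and 2 (Nat10 and Cd44) without libraries 8, 9 and 12 and in a fit of the 2 groups compared, with 0 to 1 when each library was left out. The count between genotypes, from which nothing is read because this contrast chose the genes, was 2, and became 4 without a low-count filter (averaged) and 4 with DESeq2 (under ethanol). Over all genes, calls ran from 4 to 734 for ethanol in wild type (229 as reported), from 52 to 1677 in the knockout (339) and from 2 to 162 for the averaged genotype difference (2). Within 2 Mb of Cat, 6 to 9 genes separated the genotypes over the settings tried, where 0.647% to 2.65% of all tested genes did. The count of 9 came without libraries 8, 9 and 12, where the share of all tested genes was 2.65%. Of the unlisted genes within 2 Mb, 2 to 4 separated the genotypes, and of the listed genes 4 to 6. It was 4 of 19 tested genes within 1 Mb and 6 of 45 within 5 Mb, against 0.953% of all tested genes. With library 7 as the only wild-type library with PBS, the genotype difference with PBS was −0.92 for Cat and −1.21 for Cd59a. All listed genes but Abtb2, which changed it in 1, kept the sign of the averaged genotype difference in all 19 settings. Nothing is read from that either, because this contrast chose the genes. RLE and upper-quartile factors moved the median of all genes by at most 0.034 on the log2 scale. With 3 pools per group, and with counts as low as those of Elf5 and Cd59b, small differences were not detectable at this depth.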

Other observations

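One further gene within 2 Mb of Cat, Rcn1 (chr2:105386291-105399319, minus strand), which encodes a calcium-binding protein of the endoplasmic reticulum, was called for ethanol in the knockout. Rcn1 stood at 82.2, 83.8 and 88.5 CPM with PBS and at 59.8, 63.1 and 49.2 CPM with ethanol there, without overlap, a log2 difference of −0.57 (SE 0.11, adjusted p = 0.0262, edgeR). In wild type it stood at 73.7, 71.8 and 84.8 CPM with PBS and at 61.5, 58.1 and 48.1 CPM with ethanol, also without overlap, a log2 difference of −0.46 (SE 0.11, adjusted p = 0.0677, edgeR). Its genotypes overlapped, and with Nat10 it made 1 of 38 genes within 2 Mb called in each genotype (2.63%), against 1.26% and 1.87% of all tested genes.

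Separation of the genotypes by chromosome, over all tested genes, ran from 0.452% to 1.69% of a chromosome's genes on the autosomes and X, with 0 of 32 genes on M and 0 of 7 on Y. Chromosome 2, with the listed genes counted, stood inside that range at 14 of 1362 (1.03%).

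In wild type with PBS, the 10 B cell genes took 0.0379% to 0.0570% of counts, the 10 endothelial genes 0.0507% to 0.0634%, the 10 monocyte and macrophage genes 0.374% to 0.598% and the 8 osteocyte genes 0.296% to 0.485%. In the knockout with PBS these shares were 0.0577% to 0.0663%, 0.0577% to 0.0659%, 0.462% to 0.516% and 0.288% to 0.327%, so that of these 4 lists only the B cell ranges did not overlap between genotypes with PBS. Of the other lists, the osteoblast genes did not overlap with PBS, at 2.40% to 3.02% in wild type and 3.70% to 4.36% in the knockout. Nor did the erythroid genes, at 1.13% to 1.67% and 1.89% to 2.18%. Muscle, neutrophil, osteoclast and epithelial ranges overlapped with PBS. These differences were not tested.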
